A study of Mus musculus with 4 samples.

Results

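The comparison described here set CpG methylation in neurons made from Tet/Tet mouse embryonic stem cells (ESCs) against that in neurons made from R1 ESCs, which are 2 of the 4 libraries of the series. It used every CpG site that both neuron tables list, which came to 3286239 sites, and every gene, promoter and 1 kb tile that holds at least 5 of them. The wild-type line is R1. The Tet/Tet line was derived from it by inserting tet-off constructs into both copies of Dnmt1, downstream of its promoter and ahead of the translation start, and is described by the study as overexpressing DNMT1. Tet/Tet ESCs were kept in puromycin (1 µg/ml) and neomycin (150 µg/ml) and R1 ESCs were not. Both lines were grown for 2 days as embryoid bodies and then held in a neural induction medium for 10 to 15 days. Each side is 1 line and 1 library, so a difference between the genotypes cannot be told apart from one between cultures, drug selection or libraries, no value has a replicate error, and no test was possible. The tables hold methylation only, so that neither DNMT1 nor the neuronal markers could be checked as transcripts, and the Dnmt1 locus was not analysed here.

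In mammals most methyl groups on DNA sit on the cytosine of a CpG. DNMT1 copies the mark onto the new strand after replication, whereas DNMT3A and DNMT3B place it on unmarked DNA. CpG islands at the promoters of housekeeping and developmental genes are normally free of the mark, gene bodies and intergenic DNA carry it, germline-specific promoters acquire it when embryonic cells leave pluripotency, and imprinted control regions carry it on a single parental allele. Reduced representation bisulfite sequencing (RRBS) cuts DNA with MspI at CCGG, sequences the fragment ends after bisulfite conversion, and gives for each CpG the percent of reads that kept the cytosine.

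Methylation was lower in Tet/Tet neurons over nearly all DNA that was methylated in R1 neurons. The mean over shared sites was 67.4% in R1 and 12% in Tet/Tet neurons, a difference of -55.4 points. The value was lower in Tet/Tet at 79.8% of the sites, higher at 7.22% and equal at 13%. A level of 0 was listed at 12.2% of sites in R1 and at 50.6% in Tet/Tet neurons. Read counts are not part of the tables, so the depth behind a site is unknown. Of the shared sites 34% lay inside MspI fragments of 40 to 220 bp in the reference sequence, and outside them 75.4% of R1 values and 69.3% of Tet/Tet values were exactly 0 or 100, against 22.2% and 23.8% inside. Over the fragment sites alone the means were 45.9% and 9.87%, a difference of -36.0 points. Values inside fragments are therefore given beside many of the results. The neuron comparison left out chromosomes 8 and 9, most of 7 and nearly all of 10, which were not analysed here.

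The sequences of 8 windows are shown because the results return to them: promoters of imprinted genes, promoters of germline genes that were high in R1, and a mostly repeat-masked stretch with a high remaining level. All are the plus strand of mm10 in lower case, and the capitals mark the CpGs listed in both neuron tables. The first 4 belong to imprinted genes. Nap1l5, a gene expressed from the paternal copy, is shown at chr6:58906675-58906963, in its coding exon within an intron of Herc3. Gnas, a locus whose products include a G protein subunit, is shown at chr2:174284679-174284978, in exons of Gnas and of its antisense partner Nespas. The promoter taken for Gnas lies around the most upstream start of the annotated gene, chr2:174284320. Other starts of Gnas were not measured as promoters. Airn, the noncoding RNA that silences Igf2r, is shown at chr17:12741529-12741823, in an intron of Airn and of Igf2r. Meg3, a maternally expressed noncoding RNA, is shown at chr12:109540892-109541175, in exons of Meg3 and Gm27596.
Nap1l5: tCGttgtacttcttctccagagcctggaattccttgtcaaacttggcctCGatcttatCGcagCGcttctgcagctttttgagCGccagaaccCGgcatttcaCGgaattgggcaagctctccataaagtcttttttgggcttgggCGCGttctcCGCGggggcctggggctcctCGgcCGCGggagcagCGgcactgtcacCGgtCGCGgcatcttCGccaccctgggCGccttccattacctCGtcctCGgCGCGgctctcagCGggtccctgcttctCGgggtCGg
Gnas: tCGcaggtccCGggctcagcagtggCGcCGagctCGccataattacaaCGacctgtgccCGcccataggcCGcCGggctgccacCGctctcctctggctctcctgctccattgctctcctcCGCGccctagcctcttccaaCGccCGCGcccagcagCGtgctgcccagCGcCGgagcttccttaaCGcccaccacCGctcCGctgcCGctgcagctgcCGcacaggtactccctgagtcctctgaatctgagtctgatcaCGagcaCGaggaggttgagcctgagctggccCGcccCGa
Airn: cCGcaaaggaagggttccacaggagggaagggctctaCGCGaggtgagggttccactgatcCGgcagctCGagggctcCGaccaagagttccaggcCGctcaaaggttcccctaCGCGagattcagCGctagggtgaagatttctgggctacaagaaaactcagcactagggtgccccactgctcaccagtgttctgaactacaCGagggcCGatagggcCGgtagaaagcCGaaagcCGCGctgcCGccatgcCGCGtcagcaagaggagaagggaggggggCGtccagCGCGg
Meg3: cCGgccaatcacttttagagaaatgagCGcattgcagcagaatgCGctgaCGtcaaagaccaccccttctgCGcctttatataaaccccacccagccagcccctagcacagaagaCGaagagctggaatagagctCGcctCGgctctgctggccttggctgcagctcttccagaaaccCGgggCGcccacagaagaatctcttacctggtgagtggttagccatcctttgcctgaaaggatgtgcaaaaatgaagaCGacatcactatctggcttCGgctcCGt

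In the Nap1l5 window the 27 shared CpGs averaged 44.9% in R1 (0 to 61.5%) and 0.989% in Tet/Tet neurons (0 to 5.14%), and the 16 of them inside MspI fragments averaged 49.6% and 1.67%. In the Gnas window the 17 fragment sites averaged 44.4% and 10.2%. In the Airn window all 22 sites were lower in Tet/Tet, and its 10 fragment sites averaged 45.2% and 1.77%. The Meg3 window differed from these in its means. Its 9 fragment sites averaged 20% in R1 and 20.4% in Tet/Tet neurons, and over all 13 sites both libraries were at 25.1%. Of the 13 sites 9 were lower in Tet/Tet, 2 equal and 2 higher. The higher ones went from 0 in R1 to 75% at a fragment site and to 100% at a site outside fragments. The means were thus alike although most sites were lower in Tet/Tet.

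The other 4 windows were above 80% in R1 neurons. Zim3, annotated as an antisense RNA of the Peg3 imprinted region, is shown at chr7:6977166-6977455, in exons of Zim3 and Zfp264. Sohlh2, a transcription factor of early germ cells, is shown at chr3:55182355-55182648, in an intron just past its start. Hormad1, a protein of meiotic chromosome axes, is shown at chr3:95559426-95559675, beside its start and outside annotated genes. The last lies in an intron of Elp4 at chr2:105845499-105845789 and was chosen after its values were seen, from the tiles with a high Tet/Tet level among those with at least 20 fragment sites, at least 80% in R1 and at most 10% of sites at 0 or 100.
Zim3: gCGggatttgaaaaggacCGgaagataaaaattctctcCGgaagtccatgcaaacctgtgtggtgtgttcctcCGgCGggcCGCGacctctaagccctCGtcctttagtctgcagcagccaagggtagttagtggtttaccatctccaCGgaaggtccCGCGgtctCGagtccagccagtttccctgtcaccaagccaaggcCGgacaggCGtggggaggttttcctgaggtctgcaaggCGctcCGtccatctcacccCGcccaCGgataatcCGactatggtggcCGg
Sohlh2: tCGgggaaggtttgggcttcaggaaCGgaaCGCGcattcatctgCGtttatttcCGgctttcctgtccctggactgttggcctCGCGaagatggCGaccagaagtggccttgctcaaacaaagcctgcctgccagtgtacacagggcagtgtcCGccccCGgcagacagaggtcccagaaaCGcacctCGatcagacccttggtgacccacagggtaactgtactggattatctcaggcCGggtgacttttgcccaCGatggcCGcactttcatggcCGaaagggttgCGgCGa
Hormad1: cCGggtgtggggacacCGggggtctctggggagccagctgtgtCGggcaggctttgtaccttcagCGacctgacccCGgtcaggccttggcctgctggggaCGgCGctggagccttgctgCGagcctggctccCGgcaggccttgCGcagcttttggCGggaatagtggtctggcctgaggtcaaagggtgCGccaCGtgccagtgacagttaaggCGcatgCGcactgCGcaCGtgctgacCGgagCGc
Elp4 intron: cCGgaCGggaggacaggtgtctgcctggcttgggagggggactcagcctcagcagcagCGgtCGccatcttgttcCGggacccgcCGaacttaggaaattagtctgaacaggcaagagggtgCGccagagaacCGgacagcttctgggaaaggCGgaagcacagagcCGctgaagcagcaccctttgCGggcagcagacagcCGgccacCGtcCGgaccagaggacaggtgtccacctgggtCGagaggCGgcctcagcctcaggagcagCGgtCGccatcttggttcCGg

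Over the 20 Zim3 sites the mean was 84.6% in R1 and 11.8% in Tet/Tet neurons. The 19 Sohlh2 sites ran from 91.2 to 100% in R1, with a mean of 95.8%, and from 14.3 to 51.2% in Tet/Tet, with a mean of 28.8%. The 19 Hormad1 sites averaged 89.8% (64.4 to 100%) and 19.8% (8.59 to 50%). No site in these germline windows had a Tet/Tet value at or above its R1 value. In the Elp4 intron the 19 sites averaged 91.5% in R1 and 49.2% in Tet/Tet neurons, where single CpGs ran from 16.6 to 100%. There 16 sites were lower, 2 equal and 1 higher.

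Around the starts of protein-coding genes the difference followed the R1 level. Within 0.5 kb of the nearest start both libraries were low, at 11.1% in R1 and 3.25% in Tet/Tet on the upstream side and at 8.70% and 3.10% downstream. From 0.5 to 1 kb upstream the means were 37.2% and 6.47%, and from 1 to 2 kb they were 65.1% and 10.8%. More than 5 kb downstream of a start they were 84.8% and 14.9%. Both libraries thus had a trough at the start, which in R1 spanned most of the scale and in Tet/Tet a band from 3.10 to 14.9%.

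**Figure D1:**
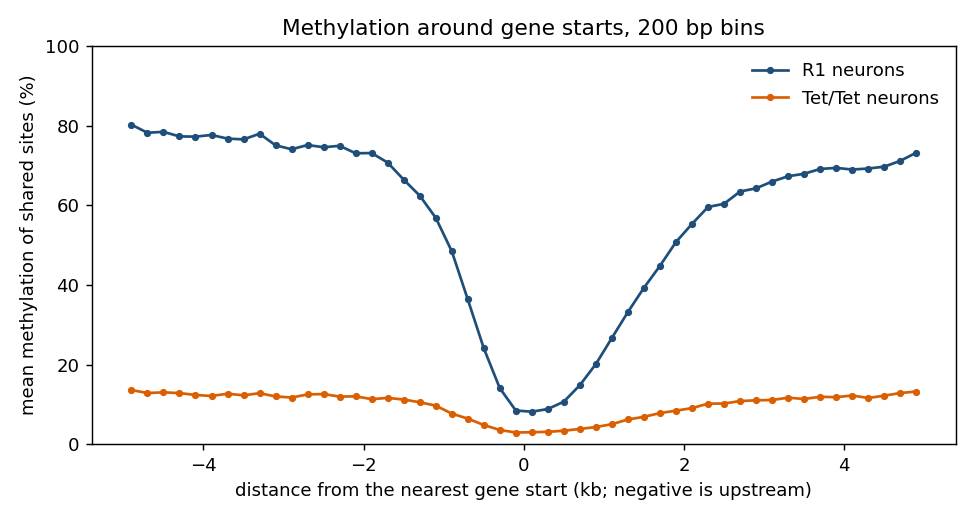
Mean methylation (%) of shared CpG sites in bins of 200 bp by distance (kb) from the nearest protein-coding gene start, for R1 neurons and Tet/Tet neurons, 1 library each. Both lines dip at the start, where R1 is at 8.17% and Tet/Tet at 3.01% in the first 200 bp downstream, and they part on either side.

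By sequence class, promoter CpG islands (islands were called on the reference sequence) differed least, with 5.87% in R1 and 2.74% in Tet/Tet neurons over 623356 sites. Gene body islands were at 27.0% and 6.78%, intergenic islands at 55.4% and 15.0%, and sites outside islands at 84.9% and 14.5%. Beyond promoters, exons were at 74.2% and 13.9%, introns at 83.9% and 14.6%, and intergenic DNA at 86.2% and 14.4%. The classes named here that stood at 55.4% or more in R1 thus stood within 13.9 to 15.0% in Tet/Tet neurons.

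For 1 kb tiles the Tet/Tet level rose with the R1 level along a shallow slope. Tiles below 10% in R1 had a median of 2.00% in Tet/Tet neurons, tiles at 40 to 50% a median of 5.37%, and tiles at 90 to 100% a median of 15.0%. From 30% in R1 upwards the mean Tet/Tet level of each bin was between 15.8% and 17.8% of its mean R1 level. The 147400 tiles at or above 80% in R1 had a Tet/Tet median of 14.5%, with 10% of them below 3.33% and 10% above 32.2%. Over fragment sites the spread was narrower, from 9.63 to 28.7% at the same percentiles around a median of 17.1%.

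**Figure D2:**
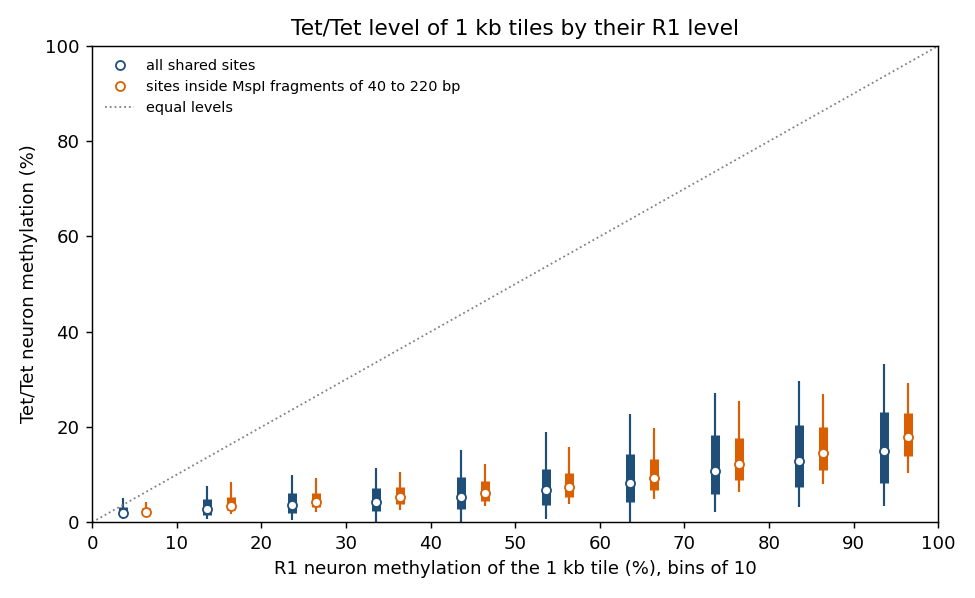
Tet/Tet neuron methylation (%) of 1 kb tiles with at least 5 sites, by their R1 neuron methylation in bins of 10%, for all shared sites and for sites inside MspI fragments. Circles are medians, thick bars run from the 25th to the 75th percentile and thin lines from the 10th to the 90th; every bin above 10% in R1 lies far below the dotted line of equal levels.

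Of 23680 genes with at least 5 shared sites 21843 (92.2%) were lower in Tet/Tet neurons by at least 10 points and 14049 (59.3%) by at least 50 points, while 8 (0.0338%) were higher by 10 points. Of 12884 protein-coding promoters, taken as 1 kb to either side of the start, 4749 (36.9%) were lower by 10 points, 2378 (18.5%) by 50 points, and 15 (0.116%) were higher. Among 194621 tiles 91.0% were lower by 10 points, 81.0% by 50 points, and 0.100% higher. The share of the R1 level that remained in Tet/Tet neurons, taken for features at or above 50% in R1, had a median of 16.9% over genes, 14% over promoters and 15.3% over tiles. At least 50% of the R1 level remained at 116 of 16368 such genes (0.709%), at 34 of 2621 promoters (1.30%) and at 2.75% of tiles.

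The gene lists differed mainly in how methylated their promoters were in R1 neurons. Promoters of tissue-restricted families made up the top. Keratins, the filament proteins of epithelia, had a promoter median of 92.0% in R1 and 16% in Tet/Tet neurons. All 40 measured promoters were lower by at least 10 points and 37 of them by 50, against 36.9% and 18.5% of all promoters. Olfactory and vomeronasal receptors, expressed by sensory neurons of the nose, had 91.5% and 6.54% over only 25 measured promoters. Interleukins and interferons were at 90.4% and 10.1%, and cytochrome P450 enzymes at 68.5% and 7.27%. Clustered protocadherins, cell surface proteins by which neurons tell themselves apart, were at 53.6% and 5.97%. Of their 48 promoters 45 were lower by 10 points, against 36.9% of all promoters.

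Other lists had low promoters in both libraries. Those of proneural bHLH factors had a median of 5.21% in R1 and 2.60% in Tet/Tet neurons. Of these 18 promoters 3 were lower by 10 points, against 36.9% of all promoters. Homeobox genes outside the Hox clusters were at 4.31% and 2.37%, ribosomal protein genes at 5.69% and 2.34%, respiratory complex I genes at 4.62% and 2.16%, and replication-dependent histone genes at 4.23% and 1.88%. Among Hox genes, which set position along the body axis, 10 of 39 promoters were lower by 10 points, against 36.9% of all promoters. Other developmental lists had higher promoters in R1. Those of mesoderm, endoderm and trophoblast genes were at 40.4% and 4.93%, and those of pluripotency genes at 35.5% and 5.32%.

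**Figure D3:**
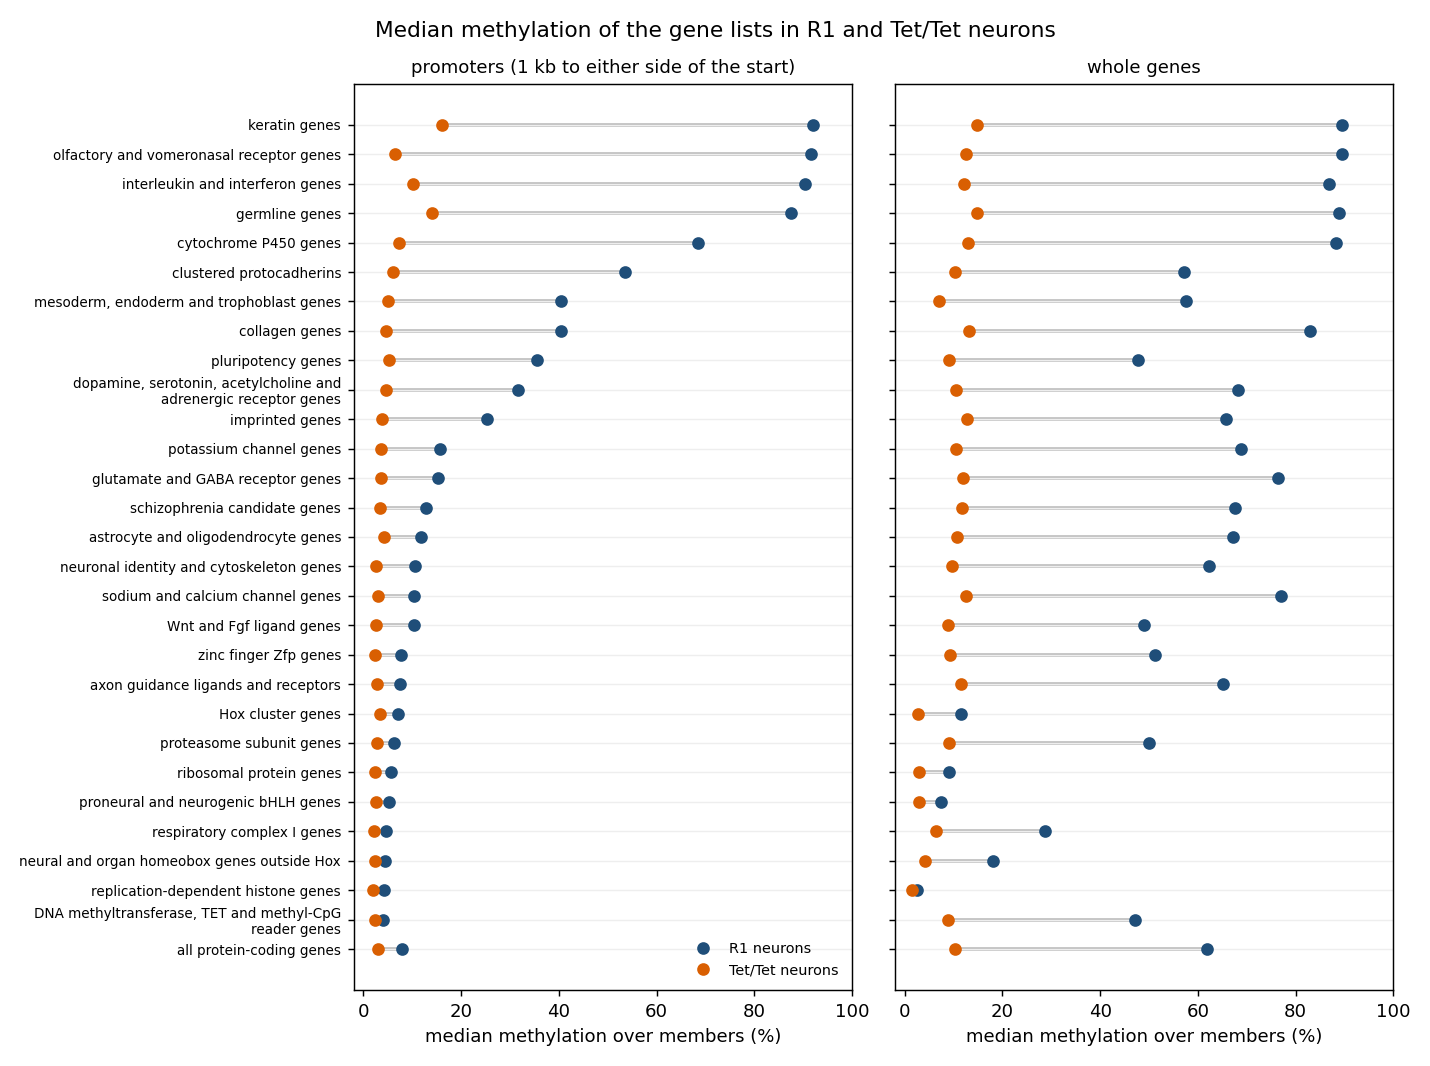
Median methylation (%) over the measured members of each gene list in R1 and Tet/Tet neurons, for promoters (left) and whole genes (right), ordered by the promoter level in R1. The R1 medians spread from 3.90 to 92.0% for promoters, and the Tet/Tet medians stay between 1.88 and 16%.

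Over whole genes the R1 medians of most lists were high and the same lists were lower by more. The median difference was -74.8 points for the 217 of 1420 olfactory and vomeronasal receptor genes that could be measured, -74.1 for germline genes, -73.8 for keratins, -72.8 for interleukins and interferons, -70.3 for collagens and -69.6 for cytochrome P450 genes, against -50.1 over all protein-coding genes. Among ion channels, sodium and calcium channel genes had -64.8, glutamate and GABA receptor genes -63.9 and potassium channel genes -56.5. The smallest were -0.64 for histone genes, -4.91 for proneural bHLH genes, -6.48 for ribosomal protein genes and -8.96 for Hox genes. The share that remained varied far less. Its median was between 11 and 19% in 27 of the lists, and 7.03% for Hox genes, where it rests on 2 genes at or above 50% in R1, against 16.9% over all genes.

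Single genes show these levels. Gria1, a subunit of AMPA-type glutamate receptors, was at 92.4% in R1 and 12.9% in Tet/Tet neurons over 362 sites. Scn1a, a neuronal sodium channel, was at 93.3% and 11.6% over 123 sites. Camk2a, a synaptic kinase, was at 89.7% and 17.7% over 271 sites, with 87.0% and 17.3% at its fragment sites. Nrxn3, a presynaptic adhesion protein, was at 88.4% and 14.4% over 831 sites. Cux2, a homeobox factor of upper cortical layers, was at 81.8% and 15.4% over 1259 sites.

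Outside the nervous system, Krt26, a keratin of the hair follicle, was at 96.2% and 8.33%, Col9a1, a cartilage collagen, at 94.1% and 13.7%, Afp, the fetal liver serum protein, at 93.8% and 11.8%, and Hnf4a, a liver and gut transcription factor, at 90.7% and 12.4%. These non-neuronal genes were named for their large fall, so their levels cannot serve to compare neuronal with non-neuronal genes. Krt17 and Col1a2, named for a high Tet/Tet level in the keratin and collagen lists, were at 30.43% and 21.65% in Tet/Tet neurons. Hoxd12 and Hoxb13, posterior members of their clusters, were the Hox genes at or above 50% over their length in R1. Hoxd12 was at 55.1% and 5.71%, and Hoxb13 at 50.1% and 1.86%.

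Germline genes are silent in somatic cells and many are silenced by promoter methylation. Of 42 in the list 38 promoters could be measured, and their medians were 87.6% and 14%. Of the 38 promoters 36 were lower in Tet/Tet neurons by at least 10 points and 31 by at least 50, against 36.9% and 18.5% of all promoters. Over fragment sites, with at least 5 of them in 29 promoters, the medians were 89.5% and 17.8%, and 27 of 29 were lower by 10 points, against 2225 of all 10618 promoters with 5 such sites (21.0%). Ddx4, an RNA helicase of germ cells, was at 86.5% and 17.4% over 57 sites. Mael, which acts in transposon silencing, was at 89.0% and 20.6% over 54 sites. Sycp1, of the synaptonemal complex, was at 89.2% and 18.8% over 69 sites, and Dazl, an RNA-binding protein needed for germ cell entry, at 60.7% and 14.5% over 116 sites. The lowest promoter levels in R1 in this list were 11.3% at Ybx2 and 12.8% at Tdrd5, which were at 4.50% and 4.4% in Tet/Tet neurons. Tdrkh, a factor of piRNA biogenesis, was at 17.5% and 0.6% over 57 sites.

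In the ESC libraries germline promoters were mostly low. Over sites listed in all 4 libraries, 32 of these promoters had medians of 87.7% and 16.1% in neurons of R1 and Tet/Tet, and of 12.7% and 20% in the ESCs of the same lines. Tet/Tet neurons were above R1 ESCs at 19 of the 32 promoters and the lowest of the 4 libraries at 13. Rpl10l, a ribosomal protein gene of male germ cells, was at 94.0% and 19.3% in the neurons and at 8.37% and 6.36% in the ESCs over 28 promoter sites. Taf7l, a testis transcription factor subunit, was at 84.6% and 11.5% in the neurons and at 16.1% and 30.3% in the ESCs over 36 sites. The ESC libraries came from another sequencing project and, per the labels, another DNA extraction, which cannot be told apart from the cell type.

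**Figure D4:**
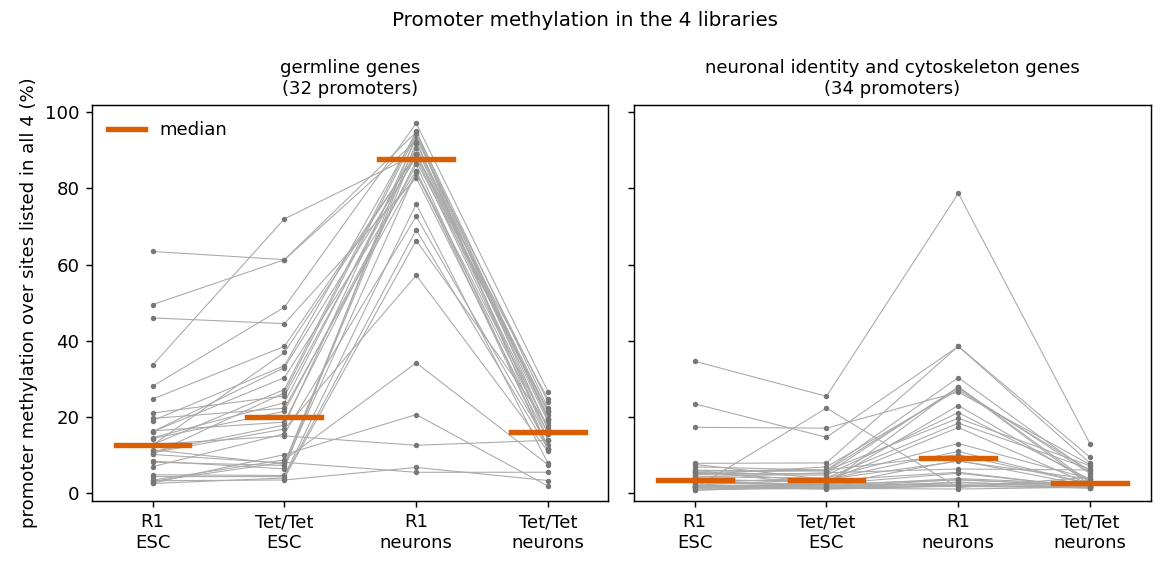
Promoter methylation (%) of germline genes (32 promoters, left) and of neuronal identity and cytoskeleton genes (34 promoters, right) in the ESCs and neurons of both lines, over sites listed in all 4 libraries, 1 library each. Thin lines join a promoter's values and thick bars are medians; R1 neurons alone stand high for germline genes, with a median of 87.7%.

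The same split by ESC level was seen over tiles. Among tiles at or above 80% in R1 neurons, the 6987 that were below 20% in R1 ESCs averaged 90.3% in R1 and 15.5% in Tet/Tet neurons, against 11.9% and 16.2% in the ESCs of those lines. The 2837 tiles at or above 80% in R1 ESCs averaged 94.8% and 24.0% in the neurons, against 86.0% and 79.2% in the ESCs. Tet/Tet neurons were thus near the ESC level in the tiles low in R1 ESCs and far below it in those high in R1 ESCs. In the latter they were the lowest of the 4 libraries at 98.8% of tiles. Those tiles were chosen as high in both R1 libraries, so that share mainly sets Tet/Tet neurons against Tet/Tet ESCs.

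Imprinted genes carry methylation on 1 parental allele, so that a control region in a normal cell reads near 50%. Of 59 in the list 37 promoters could be measured, and 22 were lower in Tet/Tet neurons by at least 10 points, against 36.9% of all protein-coding promoters. Over fragment sites 17 of 33 were lower by 10 points, against 21.0%. Between 30 and 70% in R1 neurons were 12 promoters, with a median of 46.7%, and their Tet/Tet median was 5.32% (1.47 to 25%). Peg3 and Usp29 share a promoter region and all 32 sites, and with them as 1 region 9 of 11 regions were below 10% in Tet/Tet neurons. All 1158 protein-coding promoters in that range had a median of 47.2% in R1 and 5.79% in Tet/Tet neurons, and 82.0% of them were below 10% in Tet/Tet, against 10 of the 12 imprinted ones counted by gene.

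Most of these promoters were nearly without methylation in Tet/Tet neurons. The shared Peg3 and Usp29 promoter was at 46.7% in R1 and 3.85% in Tet/Tet neurons, and at 48.3% and 2.85% over its 5 fragment sites. Airn was at 68.8% and 2.67% over 37 sites and at 47.6% and 1.70% over 14 fragment sites, where R1 was close to 50%. Nap1l5 was at 57.0% and 1.47% over 43 sites. Impact was at 37.4% and 4.20%, and Slc38a4, an amino acid transporter of the placenta, at 32.3% and 5.67%. Around its most upstream start Gnas was at 41.0% and 7.12% over 71 sites. Asb4 was at 50.4% and 4.97%, Slc22a3 at 41.4% and 6.10%, and Blcap, with only 6 sites, at 38.5% and 8.2%. Grb10, a growth factor receptor adaptor, stood at 22.8% and 3.79% over 39 sites, and Mcts2 at 19.8% and 0.521% over 52.

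A few imprinted promoters kept more. Nnat was at 47.1% in R1 and 10.8% in Tet/Tet neurons over 59 sites, and at 37.8% and 14.9% over 31 fragment sites. Meg3 was at 46.7% and 25% over 43 sites and at 29.4% and 21.6% over 12 fragment sites. Zrsr1 was at 21.3% and 14.4% over 77 sites, and at 17.9% and 15.9% over 55 fragment sites. Peg13, a noncoding RNA whose promoter was mostly methylated in R1 neurons, was at 87.0% and 21.4% over 60 sites. Slc22a2 was at 88.0% and 24.0% over 15 sites, and at 84.7% and 35.3% over 10 fragment sites. Some promoters that were low in R1 also stood nearer to their R1 level. Igf2r was at 12.6% and 6.54% over 98 sites, and Dio3 at 6.09% and 5.89% over 166.

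**Figure D5:**
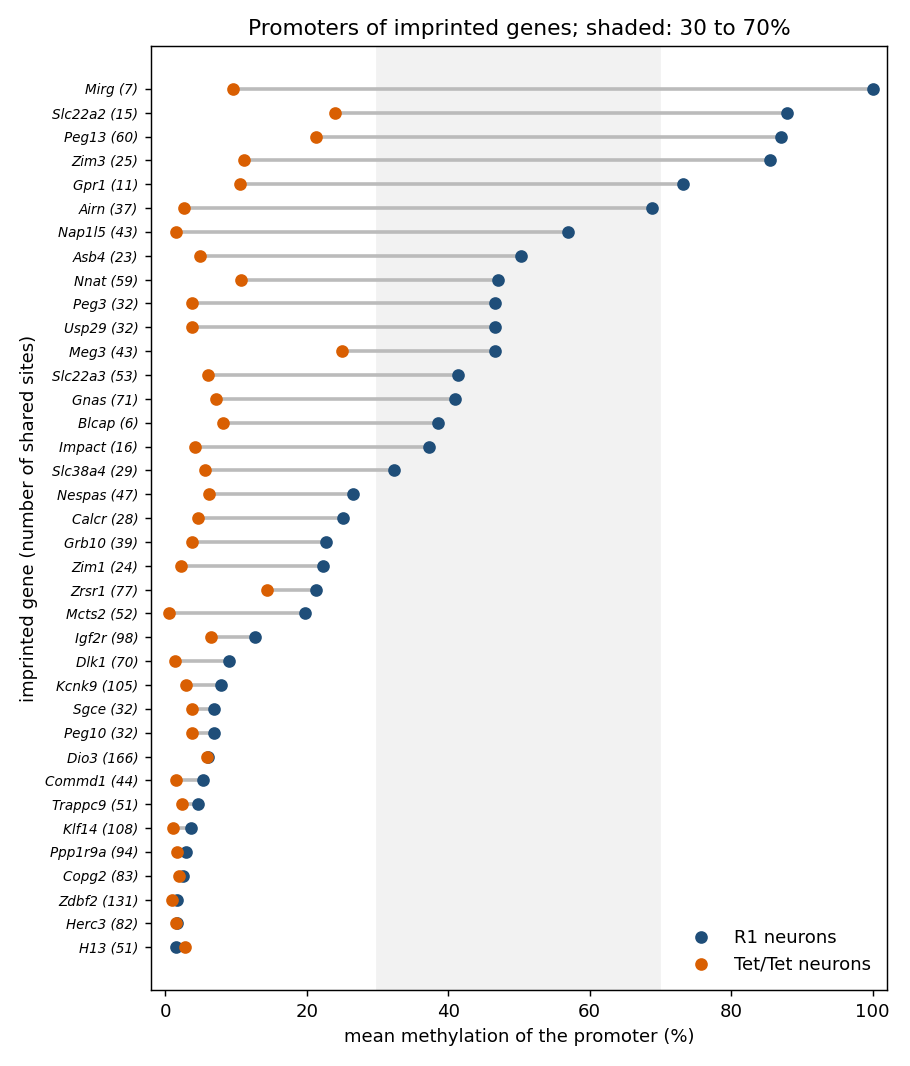
Mean methylation (%) of the 37 measured imprinted gene promoters in R1 and Tet/Tet neurons, ordered by the R1 level, with the number of shared sites after each symbol and the range from 30 to 70% shaded. Of the 12 promoters in the shaded range in R1, 10 are below 10% in Tet/Tet neurons, and Nnat (10.8%) and Meg3 (25%) are above.

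The ESC libraries also had different values at these regions. Over sites listed in all 4 libraries, Airn was at 48.1% and 2.39% in neurons of R1 and Tet/Tet, and at 16.3% and 1.75% in their ESCs. Nap1l5 was at 53.6% and 2.71% in the neurons and at 10.9% and 3.04% in the ESCs, and Gnas at 41.1% and 8.16% and at 3.78% and 1.15%. At these 3 promoters R1 ESCs were thus far below R1 neurons and Tet/Tet ESCs lower still. Meg3 went the other way in ESCs, with 18.9% in R1 and 55.2% in Tet/Tet, and was at 45.0% and 18.4% in the neurons. Peg13 was at 41.2% and 82.4% in the ESCs and at 85.0% and 25.1% in the neurons.

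Promoters of neuronal genes were low in both libraries. The 36 measured promoters of the neuronal identity and cytoskeleton list had medians of 10.5% in R1 and 2.46% in Tet/Tet neurons, and 17 were lower by at least 10 points, against 36.9% of all promoters. Over fragment sites, with 34 promoters, the medians were 7.26% and 2.46%, and 10 were lower by 10 points, against 21.0%. Map2, the dendritic microtubule protein, was at 4.07% and 1.30%, and Mapt, which codes for tau, at 2.72% and 0.842%. Several synaptic and transporter genes were partly methylated in R1. Slc32a1, the vesicular GABA transporter, was at 30.2% and 5.35%, Slc17a6, a vesicular glutamate transporter, at 26.3% and 1.51%, Syp, a synaptic vesicle protein, at 31.0% and 6.77%, and Ank2, a membrane skeleton adaptor, at 27.5% and 2.09%. Stmn2, a growth cone protein, was listed higher in Tet/Tet, at 1.08% and 10.9% over 13 sites.

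Candidate genes in schizophrenia, the disorder that the study had in view, were measured in the same way. Of 40 in the list 29 could be measured over their length, and all 29 were lower by at least 10 points, against 92.2% of all genes, with a median difference of -55.7 points against -50.1 over protein-coding genes and -58.3 over all genes. Of 28 measured promoters 13 were lower by 10 points, against 36.9% of all promoters, and over fragment sites 7 of 22, against 21.0%. The list thus stood near the shares of all genes and promoters. At or above 50% in R1 were 7 of the promoters. Nos1, nitric oxide synthase of neurons, was at 90.9% and 13.7%, and Dao, which degrades D-serine, at 88.9% and 7.43%. Htr2a, a serotonin receptor, was at 72.6% and 3.61%, Gria1 at 70.4% and 2.16% and Drd3, a dopamine receptor, at 68.6% and 6.97%. Rgs4 was at 52.9% and 7.06% over 15 sites. Cacna1c, with only 5 sites, was at 56.0% and 21.7%. Reln, the secreted glycoprotein of cortical layering, had a promoter at 5.91% and 2.61% over 191 sites. Gad2, a GABA-synthesizing enzyme, was at 5.62% and 2.70%.

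Among genes of pluripotency, Dppa3 had the highest Tet/Tet level over its length, 23.9% against 90.9% in R1, and its promoter was at 96.4% and 24.0%. Pou5f1, the pluripotency factor OCT4, had a promoter at 38.1% in R1 and 5.32% in Tet/Tet neurons over 26 sites. Dppa4 was at 88.5% and 13.3% and Esrrb at 78.2% and 6.37%. Sox2, which neural progenitors also express, was at 2.20% and 2.80%. Of 21 measured promoters 12 were lower by 10 points, against 36.9% of all promoters, and over fragment sites 7 of 16, against 21.0%.

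In the list of methylation enzymes and readers 15 of 17 measured genes were lower over their length by at least 10 points, against 92.2% of all genes. Gadd45a and Zbtb33 were lower by less over all shared sites. Over its 37 fragment sites Zbtb33 had a higher mean in Tet/Tet, with 3.04% in R1 and 8.27% in Tet/Tet neurons. Of those sites 12 were higher and 17 lower. Its promoter was at 1.97% and 5.20% over 65 sites. Most promoters were low in both libraries. Dnmt3a had a promoter at 3.90% in R1 and 2.06% in Tet/Tet neurons, Dnmt3b at 2.92% and 2.41%, and Tet2, which oxidizes the mark, at 2.85% and 2.52%. Uhrf1, the protein that brings DNMT1 to newly copied DNA, was at 12.6% and 2.38% over 86 sites.

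Within DNA that was methylated in R1, the remaining level differed with the bases beside the CpG. Among the 2055984 sites at or above 80% in R1 neurons, R1 averaged 97.3% and Tet/Tet 16.2%. With A or T on both sides the Tet/Tet mean was 12.7%, with A or T on one side 14.9%, and with C or G on both sides 18.2%, while R1 lay between 96.7 and 97.9% in these classes. Of the 16 contexts TCGA was lowest with 11.9% and GCGC highest with 18.8%. Inside MspI fragments the same classes had 14.5%, 16.4% and 20.2%. There TCGA, with 14% over 12285 sites, was again lowest, and CCGG, the MspI site itself, was highest with 20.5% over 232922 sites. TCGA made up 75492 of the sites at or above 80% in R1 and CCGG 728609.

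CpG density and repeats moved with it. With 1 to 4 CpGs within 250 bp the Tet/Tet mean at these sites was 14.3%, with 10 to 19 it was 17.7%, and with 30 or more 22.4%. Inside fragments the same classes had 17.6%, 18.9% and 24.3%. Sites in intergenic islands kept 25.2%, against 16.1% outside islands. Sites in soft-masked sequence, which is the lower-case part of the reference that marks repeats, were at 17.9% against 15.8% elsewhere, and inside fragments at 21.0% against 17.7%. Across 19 chromosomes the Tet/Tet level of these sites varied little, from 15.8% on chromosome 1 to 17.7% on Y.

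The share of repeat-masked sites differed with the remaining level. Of 690 tiles with at least 20 fragment sites and at least 80% in R1, 29 were below 10% in Tet/Tet neurons and had 21.8% of their sites soft-masked, 340 at 10 to 20% had 32.6%, 260 at 20 to 30% had 46.2%, and 61 at or above 30% had 66.8%. The share of sites in islands was 47.1%, 41.3%, 43.7% and 59.2% in the same order. Which repeats these are is not part of the files. With at least 10 fragment sites the share did not run one way at the low end. The 32 tiles below 5% in Tet/Tet neurons had 53.1% of their sites soft-masked, 422 at 5 to 10% had 26.9%, 3601 at 10 to 20% had 29.2%, 2175 at 20 to 30% had 41.9% and 563 at 30 to 50% had 59.4%. Above that, 19 tiles were at or above 50% in Tet/Tet neurons, 15 of them wholly soft-masked and 13 outside annotated genes, spread over 12 chromosomes. Over all shared sites, among tiles with at least 10, those with the highest Tet/Tet level were chr3:139563001-139564000 and chrY:40688001-40689000, both listed at 100% in Tet/Tet, from 95% and 90% in R1 over 10 sites each.

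Among genes with at least 20 sites and at or above 50% in R1, none kept 50% of its R1 level. The highest Tet/Tet level among protein-coding ones was 40.2% at Cdc34b, which codes for a ubiquitin-conjugating enzyme, from 91.7% in R1 over 32 sites, and its 16 fragment sites were at 92.9% and 20%. Sult2a3, a liver sulfotransferase, was at 85.5% and 39.7% over 39 sites and held that level at its 26 fragment sites, with 88.8% and 43.9%. Bst1, an NAD-cleaving surface enzyme, was at 95.8% and 39.1% but at 87.6% and 16.8% over its 8 fragment sites. Gm21738 and Rhox3g, a homeobox gene of the reproductive tract, followed at 37.5% and 36.7%. Nlrp5, a maternal-effect gene of oocytes, was at 93.6% and 34.1%, and at 94.3% and 10.4% over 9 fragment sites. Nmur2 and Olfr1220 came last of the 8, at 34% and 33.6%. Of Gm21738, Rhox3g, Nmur2 and Olfr1220 only Rhox3g had fragment sites, 4 in number.

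The features at or above 50% in R1 that kept at least 50% of that level had few sites. The 116 genes had a median of 6 shared sites and at most 18, and 48 of them were pseudogenes. From the lists they held Olfr1387, Vmn1r18, Vmn1r202, Vmn1r231 and the zinc finger gene Zfp600, which was at 88.9% and 48.9% over 18 sites, and among promoters Krt17, at 78.0% and 39.7% over 5 sites. The 5 promoters highest in Tet/Tet with at least 10 sites were those of Il31ra (92.5% in R1 and 71.9% in Tet/Tet), Gm5580, Aqp1, Sec14l4 and Ager, and none had a site inside a fragment. Over fragment sites 0 of 1034 promoters at or above 50% in R1 kept 50% of that level.

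At the other end, promoters listed at 0 in Tet/Tet neurons had no fragment sites either. Higd1c was at 100% in R1 and 0 in Tet/Tet over 12 sites, Gh, growth hormone, at 99.0% and 0 over 11, and Fndc9 at 97.1% and 0 over 10. Dnase1l2 was at 100% and 2.92% and Scd4 at 99.0% and 2.36%, with 94.2% and 14.2% at its 2 fragment sites. Over fragment sites, in a ranking chosen after the values were seen, the largest differences were at Dock2, a signalling protein of leukocytes, with 96.9% and 9.26%, and Popdc2, a membrane protein of heart and muscle, with 95.1% and 9.47% over 21 sites.

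Higher values in Tet/Tet neurons were few and uneven within a feature. Sfr1, a recombination factor, was at 5.12% in R1 and 20.9% in Tet/Tet neurons over 24 sites, and its 14 fragment sites were at 1.2% and 6.70%. Zfp639 was at 4.98% and 12.9% over 58 sites, but at 6.66% and 3.59% over its 42 fragment sites. Hist3h2a, a histone gene, was at 1.93% and 7.75% over 37 sites, but at 2.37% and 1.30% over its 9 fragment sites. Fam3a was at 1.56% and 6.75%, with 1.79% and 1.90% over fragment sites, and Nefl, the light neurofilament chain, at 1.18% and 5.79%, with 1.33% and 1.46%. These genes were ranked over all shared sites. Over fragment sites 10 of 17379 genes and 11 of 10618 promoters were higher by 10 points. The largest gene rises there, ranked after the values were seen, were at Txlng (19.7% and 30.4%, 39 sites) and Tmem11 (1.10% and 10.3%, 79 sites). Naa30 followed with 1.81% and 7.96% over 114 sites, of which 46 were higher and 45 lower.

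Among promoters the histone genes Hist1h2bg (0 and 25%) and Hist1h2ae (5.21% and 21.9%) had 1 fragment site each, which was at 0 in both libraries. Knl1, a kinetochore scaffold, was at 0.875% and 14.3% over 53 sites. There 10 neighbouring CpGs at chr2:119047371-119047439, inside a fragment, were at 0 in R1 neurons and in both ESC libraries, while 6 were listed at 50% and 4 at 100% in Tet/Tet neurons. The other 43 sites of the promoter averaged 1.38% in Tet/Tet neurons. H2afj, a histone variant gene, was next over fragment sites, a ranking chosen after the values were seen, with 0.200% and 33.2% over 13 sites, all of them higher in Tet/Tet.

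Among tiles with at least 10 sites the largest rise was at chr5:20952001-20953000, where the mean was 0.947% in R1 and 41.4% in Tet/Tet neurons over 18 sites, while its 7 fragment sites were at 2.44% and 1.63%. The next, chr6:65150001-65151000, was already partly methylated in R1, at 36.7% and 71.7% over 10 sites, and had no fragment sites. At chr5:109866001-109867000 it was 1.99% and 32.1% over 16 sites, against 1.95% and 1.55% at 9 fragment sites. At the tiles on chromosome 5 the higher values thus lay outside the fragments.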

How the data were processed

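Genomic DNA of R1 and Tet/Tet ESCs and of neurons derived from them was analysed by RRBS, with 1 library per cell type. The deposited tables list, per CpG, the percent of reads that kept the cytosine. The authors trimmed reads with Trim Galore 0.6.4, checked them with FastQC 0.11.8, aligned them with Bismark 0.19.0 to mm10 and called methylation with MethylDackel 0.3.0, per the study's methods and the submitters' processing notes. Read counts were not given, so the depth per site and its error are unknown, and values from few reads weigh as much as others. Both neuron libraries came from the same sequencing project. Per the labels neuron DNA was taken with a kit and ESC DNA by phenol and chloroform, while the study's methods give the latter for all samples.

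Sites listed in both neuron tables were averaged with equal weight over genes, promoters (1 kb to either side of the start, protein-coding) and 1 kb tiles with at least 5 sites, with a GENCODE annotation of GRCm38 (Python 3.11.15, numpy 2.4.6). The calculation was tested on simulated data, and other site minimums, windows and site sets were tried as alternatives, of which those over fragment sites of single features were added after seeing the data. CpG islands were called on the reference sequence (at least 200 bp, 50% GC and an observed to expected ratio of 0.6), which gave 23929. MspI fragments of 40 to 220 bp were cut from the same sequence. A count beyond 10 or 50 points is a description and not a test. Named genes were drawn from a rule that took, per list, the 2 with the largest fall and the 2 with the highest Tet/Tet level among members with at least 20 sites, and over all genes, promoters and tiles those with the highest levels and largest rises. All imprinted promoters between 30 and 70% in R1 were named. Further members of the lists, and rankings over fragment sites, were named after their values were seen. The members and lists were chosen with earlier results of these data known.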

Additional observations from a re-analysis of the deposited data

Results flagged for a closer look

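The sign of the Tet/Tet minus R1 difference was not the same in neurons and in ESCs. Over the 1545651 sites listed in all 4 libraries it was -42.4 points in neurons and 1.35 points in ESCs, and with 1 library per group this difference between the cell types was not tested.

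In the neuron tables mitochondrial CpGs, which no comparison used, were listed with a mean of 13.2% for R1 and 6.50% for Tet/Tet over 58 shared sites.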

How the results depend on the processing

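No paired analysis was possible because each group is 1 library and no test was run. Depth per site is unknown, and the tables do not allow a filter on it. The mean difference of -55.4 points was -42.4 over sites listed in all 4 libraries, -36.0 inside MspI fragments, -70.4 outside CpG islands, -68.8 with 1 site per 100 bp and -68.9 as a median over sites.

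The counts of features moved as follows, and beyond the smaller number of features that some settings leave the cause was not tested. Counts of features that kept 50% are of those at or above 50% in R1. With at least 10 shared sites, 3 genes, 9 promoters and 72 tiles were higher by 10 points, 48021 tiles were lower, and 17 genes, 7 promoters and 470 tiles kept at least 50% of the R1 level. With at least 20 sites, 1 gene, 3 promoters and 27 tiles were higher, 2395 promoters and 7835 tiles were lower, and 0 genes, 1 promoter and 19 tiles kept 50%. Inside MspI fragments, 12978 genes, 2225 promoters and 42549 tiles were lower, 57 tiles were higher, and 28 genes, 0 promoters and 471 tiles kept 50%. With 1 site per 100 bp, 40988 tiles were lower, 81 promoters higher, and 44 genes, 16 promoters and 580 tiles kept 50%. Outside islands 7398 promoters were lower and 65 higher. With a limit of 20 points, 3 genes, 4 promoters and 62 tiles were higher, and with the median of sites 3 genes and 5 promoters were. Promoters of 500 bp to either side gave 33 higher and upstream promoters 59, tiles of 500 bp gave 394 higher and tiles of 2 kb 91, and sites beyond 1 kb of the start left 76 genes that kept 50%.

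The medians of the 28 gene lists stayed negative under each of 4 alternatives, from -73.2 to -1.26 with at least 20 sites, -78.4 to -1.4 for promoters, -75.0 to -4.91 outside islands and -74.2 to -0.53 inside fragments.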

Other observations

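Over MspI fragment sites alone, a ranking chosen after the values were seen, the 5 genes with the highest Tet/Tet level were Sult2a3, Mup6, Tex11, Cyp2c38 and Tmprss11f. After Sult2a3 came Mup6, a major urinary protein of the liver, with 88.2% in R1 and 38.0% in Tet/Tet over 45 sites. Cyp2c38, a cytochrome P450 gene, was at 90.3% and 35.4% over 40 sites, and Tex11, a meiotic gene on the X chromosome, at 91.6% and 36.4% over 21 sites. Tmprss11f, a transmembrane serine protease, was at 86.0% and 34.3% over 21 sites. Sult2a3, Mup6 and Cyp2c38 belong to multigene families with close copies, and their values are uncertain to that extent. The lowest remaining levels among genes with the largest differences were 8.01% at Drc3, a ciliary protein (90.4% in R1, 30 sites), 9.08% at Cdh9, a cadherin (92.3%, 20 sites), and 9.39% at Muc3, a gut mucin (92.9%, 21 sites).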
